A study of Mus musculus with 15 samples.

Results

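The genes described here are the C/EBP family members Cebpa, Cebpb, Cebpd, Cebpe, Cebpg and Cebpz and the Tribbles genes Trib1 and Trib2. They were taken as the rows of the deposited expression table that carry these symbols, which gave 8 of its 53379 genes, each with 1 row. Of these 8, 7 passed the filter on low values (10 or more normalized reads in 3 or more libraries), as did 12673 of the 24520 genes with any read, and Trib2 did not. The study asked what loss of C/EBPα and C/EBPβ does to myeloid cells transformed by the leukaemia fusion gene MLL-ENL. RNA-seq libraries came from MLL-ENL transformed mouse fetal liver cells of 2 lines, C1 and C2. The parental cells of each line were expanded from 1 colony. All cells were grown in IMDM with fetal calf serum and murine IL-3 at 10 ng/ml. WTFL cells had a wild-type genotype in the labels, and per the methods their Cebpa and Cebpb alleles were floxed and still intact. dKO cells lacked Cebpa and Cebpb and carried an exogenous GFP. dKO-LAP* cells lacked both genes too and carried GFP together with the rat isoform LAP*, the longest form of C/EBPβ, and their libraries were analysed here for C1 only. Each of these 5 groups had 3 libraries, made from RNA of 1 cell line taken at different times, so p-values measure the spread between such samples and not between mice or independent deletions. GFP was present in dKO and not in WTFL cells. In the paper, clones with part of the alleles deleted were pooled and treated with Cre again, and few surviving colonies lacked both genes. The vector, the selection of such colonies and the deletion therefore cannot be told apart in that comparison.

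C/EBP proteins bind DNA as dimers through a basic region and a leucine zipper (bZIP). In the myeloid lineage C/EBPα drives the step to granulocyte-monocyte progenitors, C/EBPβ acts in emergency granulopoiesis and macrophages, and C/EBPε acts later, in the formation of secondary granules. C/EBPδ is an inducible activator, and C/EBPγ has no activation domain of its own and works as a dimer partner. Cebpz shares the family name and not the bZIP fold: its product is a CCAAT-binding factor related to ribosome assembly proteins, and the bZIP protein also called C/EBPζ is encoded by Ddit3 (CHOP). Trib1 and Trib2 encode pseudokinases that bring the ubiquitin ligase COP1 to C/EBPα and cause its degradation, and both can induce acute myeloid leukaemia in mice.

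Values are normalized reads, the reads of a gene divided by 1 size factor per library. Libraries held 9212237 to 13613500 reads on genes, and 3 reads, taken as the floor of detection, equalled 2.65 to 4.01 normalized reads. Differences were tested with limma on log2(normalized reads + 1) over all 15 libraries, and a Benjamini-Hochberg adjusted p under 0.05 across the 12673 genes was a call. All 10 myeloid progenitor markers looked at passed the filter. None of the 7 erythroid markers in the table did (summed level 3.06 to 23.8, 3 markers at 0 in every library). Of the other markers, 2 of 8 lymphoid, 1 of 6 hepatocyte and 2 of 7 stromal and endothelial genes passed. The summed lymphoid level went from 114 to 128 in WTFL to 11.5 to 24.1 in dKO libraries of C1, and from 72.4 to 109.5 down to 35.0 to 48.1 in C2. Cd79b leads this sum, at up to 116, and 5 of the 8 markers never passed 10. The summed hepatocyte level went from 29.8 to 40.1 down to 13.2 to 21.0 in C1 and from 109.9 to 168.8 down to 79.7 to 93.3 in C2. It is led by Afp, at up to 165, and 4 of the 6 markers were at 0 in every library. The summed myeloid progenitor level, which Mpo leads, went from 107979 to 113655 up to 184101 to 211767 in C1 and from 107546 to 112219 up to 148561 to 170952 in C2. None of these groups overlapped. The summed erythroid level was 3.06 to 6.31 in WTFL and 11.3 to 12.4 in dKO libraries of C1, without overlap, and 11.95 to 23.8 and 7.32 to 15.01 in C2, with overlap, and the part of these shifts in the results below was not tested. In such bulk samples, fewer cells of a type and less RNA per cell cannot be told apart.

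Both deleted genes were absent from the dKO libraries. Cebpa (chromosome 7, 35119293 to 35121928, plus strand, mm10, 1 exon) had 1437, 964 and 903 normalized reads in the WTFL libraries of C1 and 1653, 2267 and 1969 in those of C2, and no read in any of the 6 dKO libraries. Against a floor of 3 reads per library it was at least 359-fold lower in C1 (limma adjusted p = 8.6e-13) and at least 635-fold lower in C2 (limma adjusted p = 3.1e-13). In dKO-LAP* cells 1 read was counted in 1 of the 3 libraries. Cebpb (chromosome 2, 167688915 to 167690418, plus strand, 1 exon) had 1559, 1411 and 1394 normalized reads in WTFL cells of C1 and 1353, 1634 and 1413 in those of C2. It too had no read in any dKO library, at least 475-fold lower in C1 (limma adjusted p = 1.4e-15) and at least 474-fold lower in C2 (limma adjusted p = 1.4e-15). In dKO-LAP* cells the Cebpb row held 2537.5, 2564 and 4216 normalized reads. As the mouse gene is deleted there, these are reads of the rat sequence that aligned to the mouse gene, and they are not a level of mouse Cebpb.

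The promoters of the deleted genes, and of Cebpg as the neighbour of Cebpa, are shown for the C/EBP and related motifs they hold. Each is the stretch of 250 bases before the gene's start in RefSeq's table for GRCm38.p6, 5′ to 3′ on the gene's strand, and capitals mark motifs found on either strand. The letters searched were TTGCNNAA (the core of the palindrome that C/EBP dimers bind), TTGCGCCA (a variant C/EBP site), TGACG (the site shared by CREB and ATF proteins, reading CGTCA on the other strand) and CCAAT (reading ATTGG on the other strand). The motifs were chosen after the promoters had been read. The Cebpa window is chr7:35119043-35119292, the Cebpb window chr2:167688665-167688914 and the Cebpg window chr7:35056567-35056816.
Cebpa: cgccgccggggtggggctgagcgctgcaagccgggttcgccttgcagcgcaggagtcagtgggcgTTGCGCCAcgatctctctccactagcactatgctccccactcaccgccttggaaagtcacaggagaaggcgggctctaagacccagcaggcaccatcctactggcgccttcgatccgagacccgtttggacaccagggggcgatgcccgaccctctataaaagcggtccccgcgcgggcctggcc
Cebpb: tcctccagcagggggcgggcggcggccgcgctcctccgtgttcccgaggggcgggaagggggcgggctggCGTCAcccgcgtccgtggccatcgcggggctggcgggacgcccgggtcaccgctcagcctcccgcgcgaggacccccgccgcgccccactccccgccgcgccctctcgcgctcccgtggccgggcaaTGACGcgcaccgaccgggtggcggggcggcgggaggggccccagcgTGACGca
Cebpg: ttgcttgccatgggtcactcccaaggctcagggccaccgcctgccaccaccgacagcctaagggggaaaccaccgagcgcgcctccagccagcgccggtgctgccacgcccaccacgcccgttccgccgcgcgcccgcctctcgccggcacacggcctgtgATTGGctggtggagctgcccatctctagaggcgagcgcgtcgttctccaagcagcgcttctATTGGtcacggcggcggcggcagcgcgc
TTGCNNAA was in none of the 3 windows, and 9.57% of all 32817 promoter windows of the same length held it. TTGCGCCA began 185 bases before the start of Cebpa, a motif in 0.235% of all windows. TGACG lay 180, 53 and 7 bases before the start of Cebpb (17.7% of all windows held at least 1 copy). CCAAT lay 89 and 28 bases before the start of Cebpg (33.8% of all windows). The windows had 66.4% (Cebpa), 81.6% (Cebpb) and 70.8% (Cebpg) G and C. A match of letters is a description and not a binding site shown by these data.

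**Figure D1:**
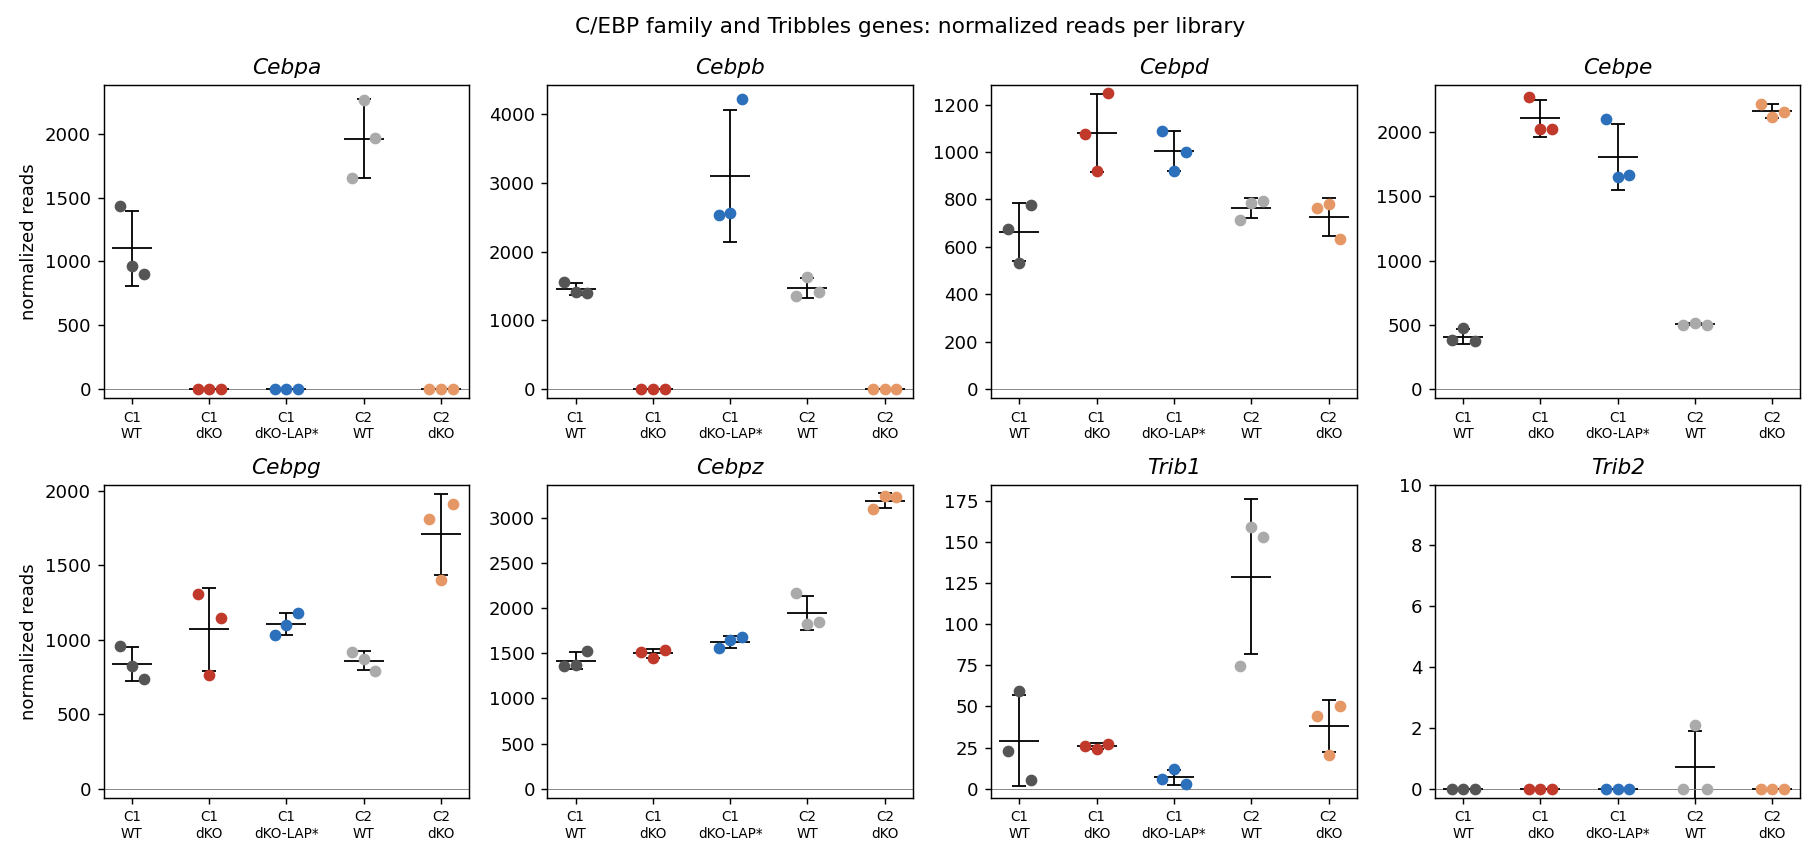
Normalized reads (y axis, linear) of the 8 genes in each of the 15 libraries. Points are libraries, and black bars are the mean ± SD of the 3 libraries of a group. Cebpa and Cebpb are at 0 in every dKO library, the Cebpb points of dKO-LAP* cells (2537.5 to 4216) are rat reads, and Cebpe lies at 2022 to 2272 in dKO and 371 to 517 in WTFL libraries of both lines.

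Across the family, the deletion of Cebpa and Cebpb went with a higher level of Cebpe in both lines. Cebpe (chromosome 14, 54710360 to 54712174, minus strand, 2 exons) is known as the C/EBP of late granulocytes. In C1 it had 380.0, 472 and 371 normalized reads in WTFL libraries and 2272, 2022 and 2027 in dKO libraries. In C2 it had 497, 517 and 501 in WTFL and 2222, 2120.0 and 2155 in dKO cells. No dKO library overlapped a WTFL library, and the dKO libraries of C2 lay within the range of those of C1. The log2 fold change was 2.37 (standard error 0.10, limma adjusted p = 8.0e-11) in C1 and 2.10 (standard error 0.10, limma adjusted p = 3.6e-10) in C2. The rise differed by -0.28 between the lines (95% confidence interval -0.58 to 0.03, limma adjusted p = 0.17), and this difference passed the threshold with quantile normalization (-0.45, adjusted p = 0.026) and without WTFL replicate 2 of C1 (adjusted p = 0.036).

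Cebpe RNA stayed high in the C1 cells that carried LAP*. The paper reports that C/EBPε protein was lost from dKO cells with LAP* after prolonged culture, and protein was not measured here. The dKO-LAP* libraries had 2106, 1653 and 1669 normalized reads, of which the highest fell within the dKO range of C1 and the other 2 lay below it. Against dKO cells the log2 fold change was -0.23 (95% confidence interval -0.44 to -0.01, limma adjusted p = 0.25), and against WTFL cells it was 2.15 (limma adjusted p = 3.3e-10). In none of the 8 alternatives was Cebpe called between dKO-LAP* and dKO cells.

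Cebpd, the inducible activator (chromosome 16, 15887286 to 15891031, plus strand, 1 exon), rose in 1 line and not in the other. In C1 it had 676, 531 and 776 normalized reads in WTFL, 1076, 919.9 and 1247 in dKO and 1087, 918 and 1001 in dKO-LAP* cells. The C2 libraries had 713, 785 and 792 in WTFL libraries and 762, 781 and 634 in dKO libraries. The 2 groups of C1 did not overlap and those of C2 did. The log2 fold change was 0.71 (standard error 0.13, limma adjusted p = 0.00056) in C1 and -0.08 (limma adjusted p = 0.68) in C2, and the lines differed by -0.79 (standard error 0.19, limma adjusted p = 0.0050). Between dKO-LAP* and dKO cells Cebpd differed by -0.10 (95% confidence interval -0.39 to 0.18, limma adjusted p = 0.76). Its exon shares 562 bases with Spidr on the other strand, so reads there could belong to either gene if counting ignored strand. Of its 3741 distinct stretches of 76 bases, the read length, 488 are shared in this way, and Spidr moved the other way in C1 (831 ± 27.9 in WTFL, 689.5 ± 27.6 in dKO, limma adjusted p = 0.031).

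Cebpg, the dimer partner without an activation domain (chromosome 7, 35046422 to 35056573, minus strand), lies 62.7 kb from Cebpa and has its promoter shown above. It had 961, 823 and 734 normalized reads in WTFL libraries and 1306, 764 and 1148 in dKO libraries of C1, and the groups overlapped through dKO replicate 2. In line C2 there were 915, 873 and 789 in WTFL and 1811, 1399.7 and 1914 in dKO cells, with no overlap. The log2 fold change was 0.98 (standard error 0.16, limma adjusted p = 0.00022) in C2 and 0.33 (standard error 0.16, limma adjusted p = 0.14) in C1, where it passed the threshold without dKO replicate 2 (0.55, adjusted p = 0.0059). The lines differed by 0.65 (limma adjusted p = 0.045), a call that 5 of 8 alternatives did not make (adjusted p 0.029 to 0.090 over the 8), and that was kept without WTFL replicate 3, dKO replicate 1 or dKO replicate 3 of C1 or dKO replicate 2 of C2 and lost without any other library (adjusted p 0.013 to 0.11). In dKO-LAP* cells Cebpg had 1034, 1097 and 1184 normalized reads, a difference of 0.08 from dKO cells (95% confidence interval -0.27 to 0.43, limma adjusted p = 0.86).

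Set on 1 scale per length of exon, these genes show how the makeup of the C/EBP RNA pool changed. In normalized reads per kb of merged exons, WTFL cells of C1 had most Cebpb (967 ± 60.3), then Cebpa (418 ± 111), Cebpe (328 ± 44.9), Cebpd (176 ± 32.9) and Cebpg (149 ± 20.3). The ranges of Cebpa (342 to 545) and Cebpe (299 to 380) overlapped, as did those of Cebpd (142 to 207) and Cebpg (131 to 171), and Cebpb stood above all. In WTFL cells of C2 the order of the first 3 was the same, with Cebpb at 975 ± 98.2, Cebpa at 745 ± 116 and Cebpe at 407 ± 8.48, and Cebpa was closer to Cebpb. In dKO cells Cebpe was first in both lines, at 1698 ± 115 in C1 and 1745 ± 41.8 in C2, each above the WTFL level of Cebpb.

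The sum over the 5 bZIP members covered overlapping ranges in WTFL and dKO cells of each line. It was 1906 to 2239 per kb in WTFL and 2011 to 2350.2 in dKO libraries of C1, with means of 2039 ± 176 and 2177 ± 169.7. In C2 it was 2281 to 2728 in WTFL and 2166 to 2316 in dKO libraries, with means of 2483 ± 226 and 2243 ± 75.2. Without Cebpg the sum of the other 4 members still overlapped in C1 (1775 to 2068 in WTFL and 1875 to 2118 in dKO libraries), and in C2 it did not, with 2118 to 2572 in WTFL and 1906 to 1994 in dKO libraries. Cebpe made up 16.2% ± 2.84 of this sum in WTFL and 78.1% ± 2.89 in dKO cells of C1, and 16.5% ± 1.15 and 77.8% ± 0.907 in C2. Cebpb and Cebpa had made up 47.5% ± 1.17 and 20.3% ± 3.53 in WTFL cells of C1, and 39.2% ± 0.701 and 29.9% ± 2.11 in those of C2. The remaining share differed between the dKO lines: Cebpd took 13.3% and Cebpg 8.68% in C1, and Cebpd took 8.64% and Cebpg 13.5% in C2. With LAP* the sum was 3987 ± 585, of which rat Cebpb reads were 51.1% ± 8.63 and Cebpe 37.1% ± 7.52. Rat reads were divided here by the length of the mouse exon. This sum and its shares are thus not on the scale of the other groups. The sum and shares depend on the exon lengths, and with the length of the principal transcript, a choice made after seeing the data, the Cebpe share of dKO cells was 76.8% in C1 and 75.8% in C2. RNA per length says nothing of the amount of protein.

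**Figure D2:**
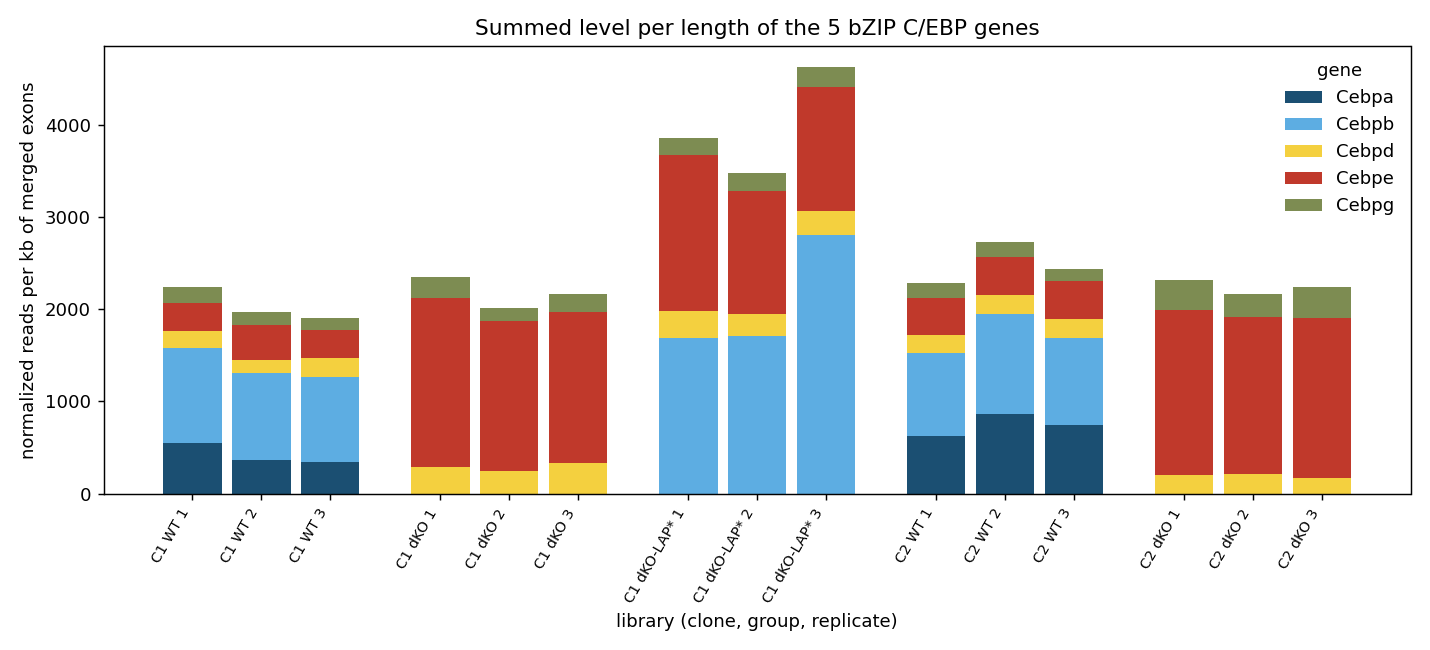
Stacked normalized reads per kb of merged exons (y axis) of the 5 bZIP C/EBP genes in each library (x axis), coloured by gene. WTFL and dKO bars have sums between 1906 and 2728, made mostly of Cebpb and Cebpa in WTFL and of Cebpe in dKO libraries. The Cebpb part of dKO-LAP* bars is rat sequence divided by the length of the mouse exon.

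Cebpz, the family member by name only (chromosome 17, 78919006 to 78937066, minus strand, 16 exons), differed between the lines more than it differed within C1. In C1 it had 1358, 1375 and 1522 normalized reads in WTFL, 1514, 1446 and 1537 in dKO and 1553, 1642 and 1684 in dKO-LAP* cells. For C2 the values were 2162, 1825 and 1846 in WTFL libraries and 3101, 3243 and 3231 in dKO libraries, the highest levels of all groups. The log2 fold change of dKO against WTFL cells was 0.08 (standard error 0.07, limma adjusted p = 0.41) in C1 and 0.72 (standard error 0.07, limma adjusted p = 1.6e-06) in C2, and the lines differed by 0.64 (standard error 0.10, limma adjusted p = 0.00025). Cebpzos, which overlaps it on the other strand over 171 bases, had 116 ± 18.6 normalized reads in WTFL libraries and 163 ± 7.31 in dKO libraries of C1 (limma adjusted p = 0.016) and 139 ± 14.1 and 159.9 ± 28.1 in C2 (limma adjusted p = 0.37). dKO-LAP* cells lay 0.12 above dKO cells without overlap of the groups (limma adjusted p = 0.43) and 0.20 above WTFL cells (limma adjusted p = 0.048), and 3 of 8 alternatives did not make the latter call, nor did fits without WTFL replicate 1 or 2 or dKO-LAP* replicate 2 or 3 (adjusted p 0.021 to 0.16 over the 6 libraries).

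The Tribbles genes were low. Trib2 (chromosome 12, 15791727 to 15816922, minus strand) had 2 reads in 1 WTFL library of C2 and none in the other 14 libraries, so no difference was detectable at this depth. Trib1 (chromosome 15, 59648350 to 59657099, plus strand) had 22.75, 59.5 and 5.09 normalized reads in WTFL cells of C1, 26.05, 24.1 and 27.4 in dKO and 6.09, 12.0 and 2.74 in dKO-LAP* cells. C2 libraries showed 74.7, 159 and 153 in WTFL and 43.9, 20.4 and 50.4 in dKO cells. Behind these values stand 3 to 167 reads per library, and the WTFL libraries of C1 spread widely, with the lowest and the highest on either side of all dKO libraries of C1.

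For Trib1, dKO cells were lower than WTFL cells in C2, with no overlap (log2 fold change -1.75, standard error 0.64, limma adjusted p = 0.043). This call was lost in 2 of 8 alternatives and in all fits without 1 library except that without WTFL replicate 1 (adjusted p 0.036 to 0.16 over these 6). In C1 the change was 0.38 (95% confidence interval -0.99 to 1.75, limma adjusted p = 0.69), and it had the other sign with edgeR (-0.20), with DESeq2 (-0.18) and without WTFL replicate 3 (-0.50). The difference between the lines was -2.13 (limma adjusted p = 0.093), and it passed the threshold without WTFL replicate 2 of C1 (-2.90, adjusted p = 0.012). The dKO-LAP* libraries (2.74 to 12.0) all lay below the dKO libraries of C1 (24.1 to 27.4), a log2 difference of -1.94 (standard error 0.64) that limma did not call (adjusted p = 0.11) and DESeq2 did (adjusted p = 0.045). Against WTFL cells of C1 the dKO-LAP* libraries differed by -1.56 (limma adjusted p = 0.077), which passed the threshold in 3 of 8 alternatives, without WTFL replicate 3 (adjusted p = 0.0020) and without dKO-LAP* replicate 2 (adjusted p = 0.044).

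Trib3, the Tribbles gene induced in the integrated stress response together with Ddit3, had the highest level per length of the 3, at 130.1 ± 72.9 normalized reads per kb in WTFL cells of C1 against 4.66 ± 4.45 for Trib1. It had 268, 436 and 126 normalized reads in WTFL libraries and 79.3, 179 and 107 in dKO libraries of C1. In C2 it had 589.6, 503 and 406 in WTFL libraries and 295, 146 and 252 in dKO libraries. The change was -1.09 in C1 (standard error 0.45, limma adjusted p = 0.068) and -1.15 in C2 (standard error 0.45, limma adjusted p = 0.053, groups without overlap). Of the 8 alternatives, 2 called it in C1 (the replicate block and edgeR, adjusted p = 0.042) and 4 in C2 (these, with edgeR adjusted p = 0.041, a pseudocount of 5 and only the groups compared). It was also called in C1 without WTFL replicate 3 (adjusted p = 0.0093) or dKO replicate 2 (adjusted p = 0.039) and in C2 without dKO replicate 1 (adjusted p = 0.0495). Ddit3 had 123 ± 45.1 and 116 ± 6.79 normalized reads in WTFL and dKO cells of C1 and 157 ± 33.4 and 162 ± 27.4 in those of C2, with changes of -0.03 and 0.06 (limma adjusted p = 0.94 and 0.88). In dKO-LAP* cells it was at 74.0 ± 15.6, 0.66 below dKO cells on the log2 scale with adjusted p = 0.14 and lower than in WTFL cells with adjusted p = 0.036 (limma).

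**Figure D3:**
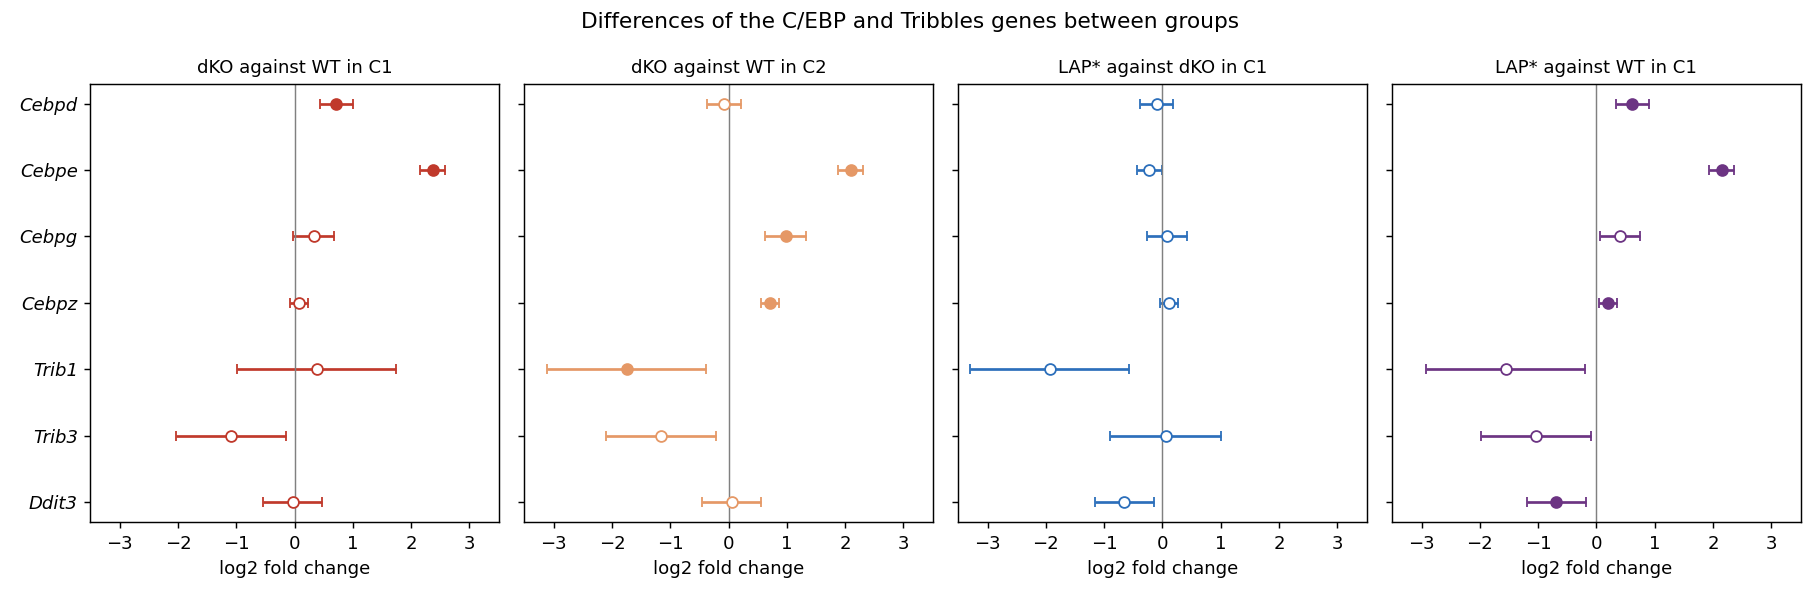
Log2 fold changes (x axis) with 95% confidence intervals for the 5 tested members that were not deleted, Trib3 and Ddit3 (y axis), in 4 comparisons. Filled points were called by limma (adjusted p under 0.05), and open points were not. Cebpe is the farthest to the right against WTFL cells (2.37, 2.10 and 2.15), and every gene of the third panel is open.

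Counted over comparisons, dKO against WTFL cells gave a call for 4 of the 7 tested members in C1 (Cebpa, Cebpb, Cebpd and Cebpe), against 37% of all genes tested. In C2 it gave a call for 6 of 7, all but Cebpd, against 37.6% of all genes. The groups did not overlap for 4 of 7 members in C1, the same 4, where this held for 45.2% of all genes, and for 6 of 7 in C2, against 51.5%. The deletion itself gives the calls of Cebpa and Cebpb, which leaves 2 of 5 and 4 of 5 members. The dKO effect differed between the lines for 3 of the 5 members that were not deleted (Cebpd, Cebpg and Cebpz), against 29.4% of all genes. Between dKO-LAP* and dKO cells, limma called none of the 5 members other than Cebpa and Cebpb, against 4.46% of all genes. At an unadjusted p under 0.05 there were 2 of 5 (Cebpe and Trib1), with edgeR 0 and with DESeq2 1 (Trib1). The dKO-LAP* and dKO libraries did not overlap for 2 of the 5 (Cebpz and Trib1), against 24.1% of all genes. Between dKO-LAP* and WTFL cells 4 of 6 members other than Cebpb were called (Cebpa, Cebpd, Cebpe and Cebpz), against 32.5% of all genes, and edgeR and DESeq2 called 5 and 6. Within C1 the 3 comparisons of WTFL, dKO and dKO-LAP* cells share libraries pairwise, and the comparisons between the lines use the libraries of the dKO and WTFL comparisons again.

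The lines also differed before any deletion. Between WTFL cells of C2 and C1, 4 of 7 members were called, against 41% of all genes, and all 4 were higher in C2, as were 19.7% of all genes. Trib1 was higher by 2.58 on the log2 scale (standard error 0.64, limma adjusted p = 0.0043), which every alternative called. Cebpz was higher by 0.45 (limma adjusted p = 0.00011), Cebpa by 0.85 (limma adjusted p = 0.022) and Cebpe by 0.32 (limma adjusted p = 0.020), and Cebpa was not called with a pseudocount of 0.1 (adjusted p = 0.35) or without the filter (adjusted p = 0.068). The call of Cebpa was also lost without replicate 2 or 3 of either line (adjusted p 0.067 to 0.098), and that of Cebpe with only the groups compared (adjusted p = 0.057) and without replicate 1 or 3 of C1 or replicate 2 of C2 (adjusted p 0.060 to 0.081). Cebpb differed by 0.01 (95% confidence interval -0.36 to 0.38, limma adjusted p = 0.98). Between dKO cells of C2 and C1, 3 of the 5 members that were not deleted were called, against 47.7% of all genes. Cebpz was higher by 1.09 (limma adjusted p = 9.0e-09) and Cebpg by 0.69 (limma adjusted p = 0.0026) in C2, and Cebpd was lower there, by -0.57 on the log2 scale (limma adjusted p = 0.0025). Cebpe differed by 0.04 (95% confidence interval -0.17 to 0.26, limma adjusted p = 0.76).

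Genes around the family were read from 5 lists. Of the 10 bZIP partners and relatives of the C/EBP proteins, 7 were tested. In C1, 2 rose and 2 fell in dKO cells (median log2 fold change -0.03), and in C2, 2 rose and 1 fell (median -0.07). Over all genes tested 17.1% were called higher and 19.9% lower in C1 (median -0.01), and 17.4% higher and 20.1% lower in C2 (median -0.03). The PAR bZIP factors Dbp and Tef, relatives that bind similar sites, rose in both lines: Tef had 169, 235 and 138 normalized reads in WTFL libraries and 293, 347 and 266 in dKO libraries of C1 (0.77, limma adjusted p = 0.0046), and it rose by 0.55 in C2 (limma adjusted p = 0.031). Dbp rose by 0.89 (limma adjusted p = 0.019) and 1.00 (limma adjusted p = 0.010). The C2 call of Tef was lost without WTFL replicate 1 or 3 or dKO replicate 1 or 3, and the C1 call of Dbp with only the groups compared (adjusted p = 0.0745) and without WTFL replicate 3 or dKO replicate 1 or 2. Nfil3, the repressor that competes for these sites, fell by 0.81 in C1 (limma adjusted p = 0.011) and by 0.76 in C2 (limma adjusted p = 0.016), where the groups overlapped. The C1 call was lost without WTFL replicate 1, and the C2 call with only the groups compared (adjusted p = 0.080) and without WTFL replicate 2 or 3 or dKO replicate 1. Atf3, a stress-induced bZIP repressor, had 146, 124 and 72.35 normalized reads in WTFL libraries and 5.66, 19.9 and 9.71 in dKO libraries of C1, and it fell by 3.27 (limma adjusted p = 3.3e-05). In C2 Atf3 was low already in WTFL cells (15.9 to 28.3), and its change was -1.05 (limma adjusted p = 0.081), which passed the threshold without dKO replicate 1 (-1.53, adjusted p = 0.015).

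Trib3, its relative Stk40, genes of the COP1 ligase and kinase genes of the MEK family made a list of 9 genes, all tested. In C1, 1 rose and 2 fell in dKO cells, in C2, 2 rose and 1 fell, and the medians were -0.18 and -0.11. The number that fell was 0 to 3 over alternatives and 0 to 4 without 1 library in C1 (0 without WTFL replicate 1, 4 without WTFL replicate 3), and 1 to 2 and 0 to 3 in C2 (0 without dKO replicate 2, 3 without dKO replicate 1). Map2k1 (MEK1), a kinase that binds Tribbles proteins, fell by 0.48 in both C1 (limma adjusted p = 0.0092) and C2 (limma adjusted p = 0.0088), and these calls were lost with only the groups of C1 compared (adjusted p = 0.051), without WTFL replicate 1 of C1 (adjusted p = 0.058) and dKO replicate 2 of C2 (adjusted p = 0.051). Cop1, the ligase that degrades C/EBPα, rose in C2, from 698, 639.6 and 732 normalized reads to 1155, 1128 and 1119.8 (0.72, limma adjusted p = 2.2e-05), and not in C1 (872 ± 64.3 against 889 ± 120.2, limma adjusted p = 0.88). The lines differed by 0.70 in this respect (limma adjusted p = 0.00094). Stk40, a relative of the Tribbles kinases, was at 553 and 459 in WTFL and dKO cells of C1 and at 646 and 529 in those of C2 (limma adjusted p = 0.10 and 0.064), and it was called lower without WTFL replicate 3 of C1 (-0.38, adjusted p = 0.016) and without dKO replicate 1 of C2 (-0.40, adjusted p = 0.022).

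Of 10 regulators of Cebpa and Cebpe transcription, 3 rose and 3 fell in dKO cells of C1, and 3 rose and 2 fell in C2 (medians 0.04 and -0.05). Myb, a progenitor factor, rose in both lines, by 0.52 in C1 (limma adjusted p = 0.00099) and by 0.70 in C2 (limma adjusted p = 6.8e-05). Runx1, which binds an enhancer of Cebpa, rose by 0.88 in C2 (limma adjusted p = 2.2e-05) and differed by 0.20 in C1 (limma adjusted p = 0.20, 0.040 with quantile normalization), and the lines differed by 0.68 (limma adjusted p = 0.0051). Klf4, a monocyte factor, had 74.9, 122 and 175 normalized reads in WTFL libraries and 6.80, 12.6 and 13.2 in dKO libraries of C1 (limma adjusted p = 1.7e-05). In C2 it was at 3.98 to 12.8 in WTFL and 2.92 to 5.36 in dKO cells, which lies near the floor. Klf5 rose by 1.33 in C2 (limma adjusted p = 0.00016) and differed by 0.12 in C1 (limma adjusted p = 0.70).

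Of 6 listed regulators of Trib1 and Trib2, 5 were tested, and 1 rose and 3 fell in dKO cells of C1 (median -0.21) and 1 rose in C2 (median -0.04). Pbx3, a HOX cofactor, had 77.6, 90.2 and 94.8 normalized reads in WTFL libraries and 148, 159 and 172 in dKO libraries of C1 (0.87, limma adjusted p = 0.00034). The C2 libraries had 90.6, 151 and 132 in WTFL libraries and 792, 784 and 755 in dKO libraries (2.66, limma adjusted p = 2.7e-09). Hoxa9, a homeobox factor of MLL-rearranged leukaemia, had 2372, 2518 and 1938 normalized reads in WTFL libraries and 1547, 1618.5 and 1302 in dKO libraries of C1, and it fell by 0.61 (limma adjusted p = 0.013), a call lost without WTFL replicate 2 or dKO replicate 3. In C2 its change was -0.38 (limma adjusted p = 0.11), which passed the threshold with only the groups compared (adjusted p = 0.028). E2f1, a cell cycle factor, fell by 0.38 in C1 (limma adjusted p = 0.0064), and its change in C2 was -0.14 (limma adjusted p = 0.27, 0.041 without dKO replicate 2). Meis1, which drives Trib2 in other leukaemia models, was at 1093 and 944 in WTFL and dKO cells of C1 (limma adjusted p = 0.038) and at 963 and 943 in those of C2 (limma adjusted p = 0.78), in cells where Trib2 was at 0 in all but 1 library. The C1 call of Meis1 was lost in 6 of 8 alternatives and without WTFL replicate 1 or 2 or dKO replicate 2 or 3.

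Among 22 known C/EBP target genes of myeloid cells, 21 were tested. In C1, 12 rose and 4 fell in dKO cells (median 0.77), and in C2, 8 rose and 2 fell (median 0.18). Some of these genes also serve as myeloid progenitor markers. Mpo, the myeloperoxidase of primary granules, had 15671, 14158 and 12694 normalized reads in WTFL libraries and 77194, 72755 and 59156 in dKO libraries of C1 (2.29). In line C2 there were 3513, 3347 and 1533 in WTFL libraries and 17301, 28890 and 21867 in dKO libraries (3.08). Ltf, the lactoferrin of secondary granules, went from 37.5, 46.0 and 30.6 to 3292, 3655 and 3941 in C1, and from 226, 683 and 744 to 992, 968 and 827 in C2. The C2 call of Ltf (0.93, limma adjusted p = 0.029) was lost with DESeq2 (adjusted p = 0.077), with only the groups compared (adjusted p = 0.146) and without WTFL replicate 1 or dKO replicate 1 or 2. Prg2, the major basic protein of eosinophils, had no read in WTFL libraries and 10159, 9403 and 5479.8 normalized reads in dKO libraries of C1, at least 2561-fold higher against a floor of 3 reads per library (limma adjusted p = 1.4e-12). In C2 it rose from 2.99, 2.10 and 7.33 to 104, 156.5 and 153 (4.86, limma adjusted p = 8.8e-08). Il1b, an inflammatory cytokine, fell in C1, from 278, 779 and 215 to 7.93, 6.29 and 14.1, and was at 0.97 to 10.1 in all libraries of C2.

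In the same list, 12 of 21 genes were lower and none was higher in dKO-LAP* than in dKO cells (median -1.15, against 0 over all genes), where 3.03% of all genes tested were called lower and 1.43% higher. The summed level of the stromal and endothelial markers, which Pecam1 leads, was 429 to 466 in dKO and 201.1 to 238 in dKO-LAP* libraries, that of the erythroid markers 11.3 to 12.4 and 5.47 to 7.11, and their part in this count was not tested. edgeR and DESeq2 also called 12 lower and 0 higher, at an unadjusted p under 0.05 there were 12, and fits without 1 library called 9 or 10 lower, each without Mmp8. The 12 were the cytokine receptor genes Csf3r and Csf2ra, the secondary granule genes Ltf, Camp, Ngp, Lcn2 and Mmp8, the gelatinase gene Mmp9 of tertiary granules, and Lyz2, Prg2, S100a8 and S100a9. Ltf fell to 319, 437 and 353 normalized reads, still above WTFL cells of C1 (30.6 to 46.0), and Prg2 fell to 1100.1, 475 and 406. Mpo was at 74549, 61315 and 68504, a difference of -0.03 from dKO cells (limma adjusted p = 0.97). In the other 4 lists limma, edgeR and DESeq2 called no gene between dKO-LAP* and dKO cells. At an unadjusted limma p under 0.05 there were 1 of 7 bZIP relatives and 1 of 9 Tribbles, COP1 and MEK genes. There were also 2 of 10 Cebpa and Cebpe regulators and 1 of 5 Trib regulators.

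**Figure D4:**
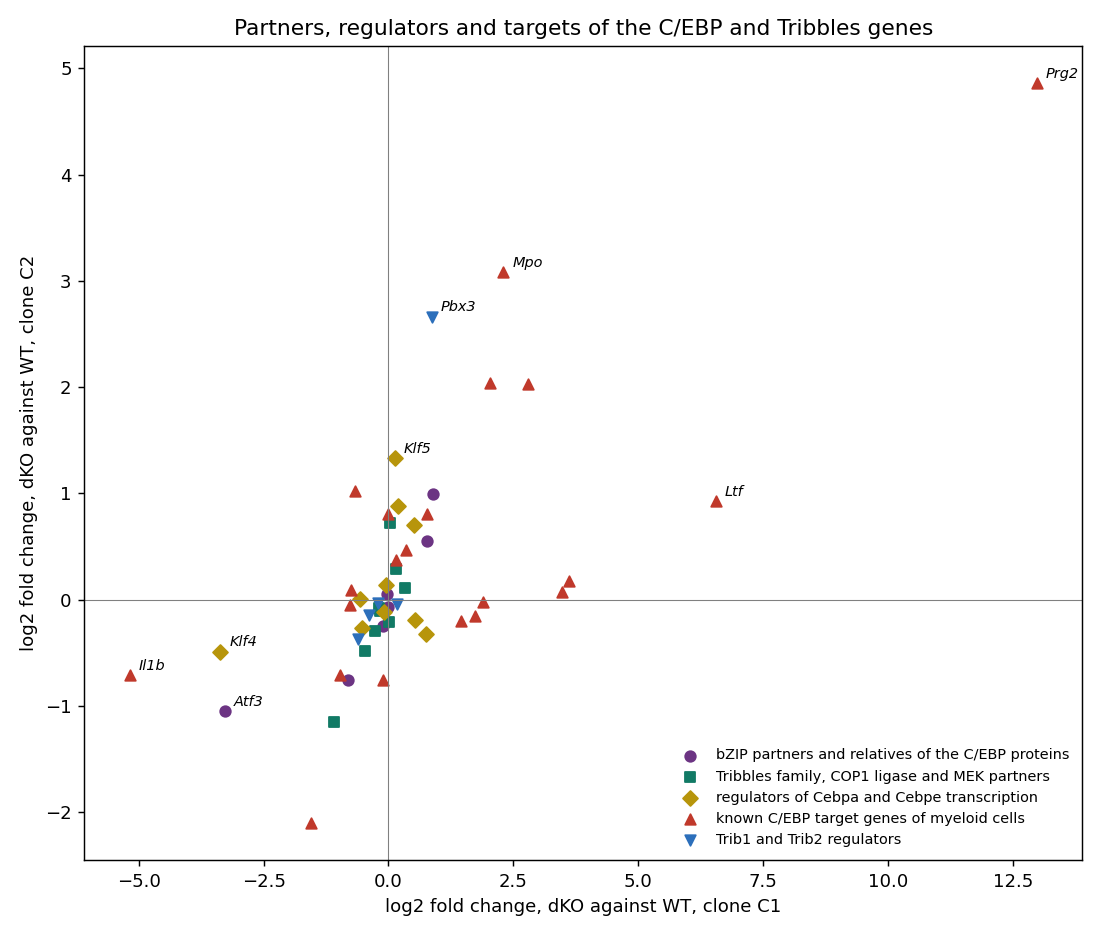
Log2 fold change of dKO against WTFL cells in C1 (x axis) and C2 (y axis) for the tested genes of the 5 lists, coloured by list, with the named genes that changed most labelled. Ltf (6.56 and 0.93), Il1b (-5.18 and -0.71) and Klf4 (-3.36 and -0.49) lie far along the C1 axis only, and Mpo (2.29 and 3.08) and Pbx3 (0.87 and 2.66) are raised in both lines. Prg2 (12.98 and 4.86) lies farthest to the right, at a C1 value that rests on the pseudocount.

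Genes next to the members were also measured. Slc7a8, an amino acid transporter gene 10.0 kb from Cebpe, had 142, 189 and 133 normalized reads in WTFL libraries and 161, 237 and 194 in dKO libraries of C1 (0.35, limma adjusted p = 0.13). For C2 the values were 135, 196 and 189 in WTFL libraries and 527, 449 and 462 in dKO libraries (1.48, limma adjusted p = 6.2e-06), and the lines differed by 1.13 (limma adjusted p = 0.0022). Pepd, 1.71 kb from Cebpg, was at 526 and 499.6 in WTFL and dKO cells of C1 and at 522 and 461 in those of C2 (limma adjusted p = 0.65 and 0.20). Tmem189, whose exons share 312 bases with Cebpb on the other strand, fell by 0.33 in C1 (limma adjusted p = 0.0022) and by 0.77 in C2 (limma adjusted p = 8.5e-07). Ptpn1, the neighbour of Cebpb on the other side at 242 kb, had 3516, 3923 and 3269 normalized reads in WTFL libraries and 1879, 2074 and 2031 in dKO libraries of C1 (-0.84, limma adjusted p = 8.8e-07), and its change in C2 was 0.10 (limma adjusted p = 0.36). Ndufaf7, 0.070 kb from Cebpz, rose by 0.38 in C2 (limma adjusted p = 0.012), with a change of -0.15 in C1 (limma adjusted p = 0.31). Lpin1, the neighbour of Trib2 at 719 kb, fell by 1.262 in C2 (limma adjusted p = 0.00085), with a change of 0.30 in C1 (limma adjusted p = 0.37). Tmem189 kept 438 to 466 normalized reads in dKO libraries of C1 and 474 to 493 in those of C2, where Cebpb had no read.

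Over the 15 libraries, the genes most like each tested member were picked by Pearson's r of log2(normalized reads + 1), as a description over points that share lines and groups. For Cebpa they were Matn2 (r = 0.99), Smad1 and Rapgef5, of which Matn2 and Smad1 were at 0 in every dKO group mean. For Cebpe they were Rab38 (r = 0.99), Hmga2 and 4921513I03Rik, and Hmga2 had means of 0 in WTFL cells of both lines, 118 in dKO and 68.2 in dKO-LAP* cells of C1 and 232 in dKO cells of C2. For Cebpb they were Gramd3 (r = 0.93), Prdx4 and Serpinb9e, a ranking that includes the rat reads. For Cebpz they included Eif5b (r = 0.99) and Cct2, and they were for Cebpg Vapa (r = 0.93), Extl2 and Vav3, for Cebpd Zfp862-ps (r = 0.92), Ptgr2 and H2afj, and for Trib1 Appl2 (r = 0.94), Plaur and Csta2.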

How the data were processed

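RNA of 15 cell samples was measured. According to the methods and the submitters' processing notes, the authors aligned paired-end reads of stranded libraries to mm10 with STAR 2.5.3a, counted reads per gene with HTSeq 0.10.0 and normalized with DESeq2 1.26.0. The annotation and the strand setting of the counting are not given in the sources used here. The deposited signal is thus a count scaled by the size factor of its library. Of its 18 columns, 15 matched a sample and 3 were not used. The table has 5 rows of other reads, left out here, with 22.4% to 26.2% of each library. All values up to 1000 reads lay within 0.1 of a whole read, so reads could be recovered with size factors of 0.747 to 1.13, and that of WTFL replicate 1 of C2 was so near 1 that whole reads are a weaker check there. Depth limits precision through counting error: 3 reads were the floor, and folds against it cover counting error only.

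Values were analysed as log2(normalized reads + 1) with limma 3.58.1 in R 4.3.3, with 1 mean per group over 15 libraries and a trended prior, for genes that reached 10 normalized reads in 3 or more libraries. The fold changes are on this scale and understate those of low genes. The fit was tested on simulated data. Alternatives were pseudocounts of 0.1 and 5, no filter, quantile normalization, a fit of the compared groups alone, a replicate block, edgeR 4.0.16 with TMM and DESeq2 1.42.0 on recovered reads, and leaving out each library. Gene positions, overlaps and lengths came from GENCODE vM21 and promoters from RefSeq. Symbols missing in 26111 rows were taken from GENCODE for 26006. Python 3.11.15, pandas 2.3.3, numpy 2.4.6 and matplotlib 3.10.9 made tables and plots.

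The members, the lists, the named genes and the tests were chosen with earlier results of these data known. Named genes were the 8 members, Trib3, Ddit3, up to 4 genes of each list with the largest mean absolute change over both lines, the 3 genes most like each tested member (1 of these is not reported here), and the nearest protein-coding genes. Target genes called between dKO-LAP* and dKO cells were named after their values were seen. The replicate numbers were not used as pairs, since of 30 same-numbered pairs of libraries only 5 had deviations from their group means that correlated over 0.1 (r from -0.32 to 0.30).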

Additional observations from a re-analysis of the deposited data

Results flagged for a closer look

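The dKO effect differed between C2 and C1, by limma's test of the difference (Benjamini-Hochberg adjusted over 12673 genes), for 3 of the 5 members that were not deleted, 20 of 52 tested list genes and 5 of 10 neighbouring or overlapping genes, against 29.4% of all genes. Positive values mean a higher change in C2, which includes a smaller fall there. Such were Atf3 (-3.27 in C1 and -1.05 in C2), Klf4 (-3.36 and -0.49) and Il1b (-5.18 and -0.71). Of the members, Cebpd differed by -0.79 (adjusted p = 0.0050), Cebpg by 0.65 (adjusted p = 0.045) and Cebpz by 0.64 (adjusted p = 0.00025). Of the list genes with higher changes in C2, Atf3 differed by 2.22 (adjusted p = 0.016), Cop1 by 0.70 (adjusted p = 0.00094), Klf4 by 2.87 (adjusted p = 0.0023), Klf5 by 1.21 (adjusted p = 0.0071), Runx1 by 0.68 (adjusted p = 0.0051), Il1b by 4.47 (adjusted p = 0.00030), Csf2ra by 0.83 (adjusted p = 0.00097), Il6ra by 0.82 (adjusted p = 0.0090), Stat3 by 0.27 (adjusted p = 0.020) and Pbx3 by 1.80 (adjusted p = 1.8e-05). With lower changes in C2, Prg2 differed by -8.11 (adjusted p = 4.0e-08), a size that rests on the pseudocount, since Prg2 had no read in the WTFL libraries of C1, and that ran from -11.1 to -6.67 over the 8 alternatives. Among the others with lower changes, Ltf differed by -5.63 (adjusted p = 2.6e-07), Camp by -3.44 (adjusted p = 1.7e-06), Ngp by -3.40 (adjusted p = 3.5e-06), S100a9 by -1.93 (adjusted p = 0.00010), S100a8 by -1.66 (adjusted p = 0.00047), Id2 by -1.87 (adjusted p = 0.019), Ets1 by -1.07 (adjusted p = 0.00024), Gfi1 by -0.72 (adjusted p = 0.00033) and Csf3r by -0.65 (adjusted p = 0.016). Of the neighbours, Slc7a8 differed by 1.13 (adjusted p = 0.0022), Ptpn1 by 0.94 (adjusted p = 2.2e-05), Ndufaf7 by 0.53 (adjusted p = 0.016), Lpin1 by -1.56 (adjusted p = 0.0032) and Tmem189 by -0.44 (adjusted p = 0.0044). All these calls but those of Cebpg, Stat3 (lost with quantile normalization, adjusted p = 0.24) and Id2 (lost without WTFL replicate 2 or 3 of C2, adjusted p up to 0.052) were made in each of the 8 alternatives and the 12 fits without 1 library. The WTFL libraries of the lines overlapped for Cebpd, Cebpg, Pbx3, Camp, Ets1, Id2, Slc7a8 and Ndufaf7 and for no other of these genes. For example, Il1b had 215 to 779 normalized reads in WTFL cells of C1 and 4.19 to 10.1 in those of C2, and Ltf had 30.6 to 46.0 and 226 to 744. The part of these levels in the differences was not tested.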

How the results depend on the processing

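Over alternatives, the changes of the members gave 44 results with 658 values, of which 590 kept their sign and side of the threshold, 37 lost a call, 15 gained one and 16 changed sign. The member values include Cebpa and Cebpb in dKO cells and Cebpa in dKO-LAP* cells against WTFL cells. The deletion fixes these, and all of them kept their calls. For list genes 533 of 588 values kept sign and side of the threshold, with 33 calls lost, 15 gained and 7 signs changed. The cause was not tested. Every change of sign was in a difference that was not called. For Trib1 in C1 the value was -0.20 with edgeR and -0.18 with DESeq2, and -0.50 to 1.16 without 1 library. Without 1 library, Cebpd in C2 ran from -0.13 to 0.016, and between dKO-LAP* and dKO cells Cebpd from -0.21 to 0.0071 and Cebpg from -0.15 to 0.24. Between WTFL lines, Cebpb ran from -0.071 to 0.065 and Cebpg from -0.053 to 0.14, and the line difference of Cebpb from -0.065 to 0.071, with 0.0094 in DESeq2. In C1, Cop1 ran from -0.058 to 0.13, Klf5 from -0.13 to 0.34 and Ddit3 from -0.28 to 0.24, and Ddit3 in C2 from -0.082 to 0.22. Cebpe between dKO lines was -0.062 with quantile normalization. Between dKO-LAP* and dKO cells, all genes called higher numbered 181, and 86 with only the groups compared, and members called numbered 1 with DESeq2. Without 1 library, all genes called higher there ran from 75 to 175 and all genes called lower from 196 to 312 (384 with all libraries), and members called between WTFL lines from 2 to 4 (2 without WTFL replicate 3 of C1 or replicate 2 of C2). With quantile normalization the share of calls that were higher went from 46.3% to 56.6% for dKO against WTFL cells of C1 and from 43.6% to 56.9% for dKO-LAP* against WTFL cells. With the replicate block, the call of Cebpz between dKO-LAP* and WTFL cells (0.20) was lost (adjusted p = 0.064), that of Meis1 in C1 too (adjusted p = 0.057), Trib3 was called in C1 (adjusted p = 0.048) and C2 (adjusted p = 0.037), and the block changed no other call of a member or named list gene in dKO against WTFL cells. Trib1 had 3 to 167 reads per library, and its values are the least precise of the tested members.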
